A study of Mus musculus with 18 samples.

Results

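Macrophages lacking Klf3 (knockout, KO) were compared with wild type (WT) macrophages 8 h after vehicle, a condition without an inflammatory stimulus. The comparison uses 6 of the 18 arrays of the study, 3 KO and 3 WT, chosen by their titles, and reads 17097 genes from 1 probe set each, the one with the highest mean over all arrays. All cells were macrophages grown from the bone marrow of male mice of the FVB/NJ strain aged 10 to 14 weeks, WT or Klf3 KO, and kept for 7 to 10 days in medium of which 20% came from L929 cells, a source of the macrophage growth factor M-CSF. That medium was washed off and replaced with regular serum-containing medium, so every array read at 8 h comes from cells without added L929 medium for that time. The vehicle groups received phosphate-buffered saline (PBS). The other groups, used here only for contrast, were harvested at 0 h without treatment or after 8 h with 100 ng/mL lipopolysaccharide (LPS), with 3 WT and 3 KO arrays each. The labels do not say which part of Klf3 is deleted, in which cells it was deleted, or whether each replicate is its own animal or culture. The p-values therefore cover the spread between arrays, which may be technical.

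KLF3 belongs to the Krüppel-like factors, DNA-binding regulators with zinc fingers. Members of this family bind CACCC boxes and related GC-rich sites in promoters and enhancers, and KLF3 mostly represses transcription by recruiting the corepressor CtBP, with FHL3 as another known partner. It has been studied in erythroid cells, B cells and fat, and competes with activating relatives such as KLF1 for the same sites. Bone marrow-derived macrophages are adherent phagocytes that express the M-CSF receptor Csf1r and the surface protein F4/80, the product of Adgre1.

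Klf3 was read by 6 probe sets, and 3 of them fell in KO cells. Probe set 1421604_PM_a_at read 7.96, 7.01 and 7.88 in WT arrays 1, 2 and 3 and 3.85, 3.89 and 2.47 in KO arrays 1, 2 and 3, as log2 of the quantile-normalized intensity, the scale of all levels here. The KO values all lay at or under the nonspecific level, which is the 95th percentile of 23 control probe sets with no target in each array and ran from 3.71 to 4.08 in the 6 arrays. Against that level it was at least 13.2-fold lower in KO cells. The fitted difference, -4.21 ± 0.40 (log2, KO minus WT, ± SE, n = 3 arrays each; adjusted p = 0.000489 over 45037 probe sets), rests on KO values that are not above background. Probe set 1429360_PM_at read 7.99, 7.46 and 8.36 in WT arrays and 5.80, 5.88 and 5.49 in KO arrays, a difference of -2.21 ± 0.23 (adjusted p = 0.000672). Probe set 1454666_PM_at, the brightest, read 9.09, 8.30 and 8.98 in WT arrays and 7.08, 7.45 and 6.08 in KO arrays. Its difference was -1.92 ± 0.29, with an adjusted p of 0.044 over all probe sets and 0.0529 over the 17097 genes, for which it stands for Klf3. The groups did not overlap at any of the 3, and WT array 2 was the lowest WT array at each.

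The other 3 Klf3 probe sets did not fall. Probe set 1431630_PM_a_at was higher in every KO array (8.60, 8.71 and 8.20) than in any WT array (6.91, 7.82 and 6.86), a difference of 1.31 ± 0.32 that missed the threshold (adjusted p = 0.506). WT array 2 again lay closest to the KO arrays. Probe sets 1441200_PM_at and 1442920_PM_at differed by 0.05 ± 0.21 and 0.24 ± 0.17, and their groups overlapped. Since the deleted part is not known, a probe set that did not fall is no check of the genotype.

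**Figure D1:**
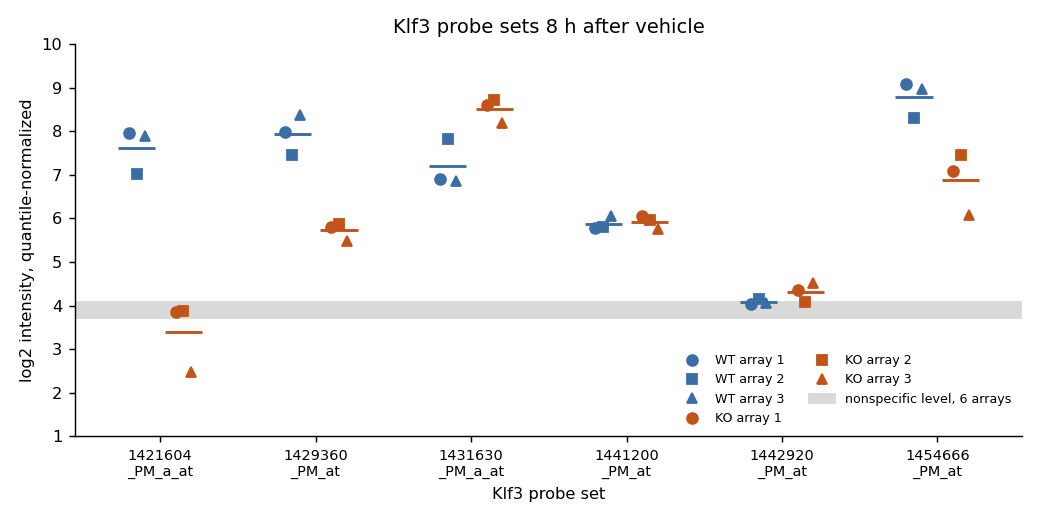
Level of each Klf3 probe set (x axis) in the 6 vehicle arrays as log2 quantile-normalized intensity (y axis); points are arrays, horizontal lines group means, and the grey band spans the nonspecific level of the 6 arrays. Probe sets 1421604_PM_a_at, 1429360_PM_at and 1454666_PM_at read lower in all KO arrays, 1431630_PM_a_at read higher in all of them, and at these 4 the square of WT array 2 is the WT point nearest the KO points.

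All 6 arrays carried macrophage RNA. Csf1r read 11.81 to 12.16 and Adgre1 10.68 to 11.29 over the 6 arrays, and of 26 macrophage identity genes 26 in WT and 25 in KO cells were above the nonspecific level in every array. Summed intensities of 12 marker lists for other cells overlapped between genotypes for 10 of them. The exceptions were the neutrophil markers, 310 to 420 in WT and 481 to 548 in KO arrays with 2 of 10 markers above the level in every array, and the endothelial and adipocyte markers, 845 to 1074 and 753 to 806 with 4 of 10. Of the 10 neutrophil markers 2 had a positive difference (median -0.08), and Mmp8, the brightest, was 1 of them, while of the 10 endothelial and adipocyte markers 6 were positive (median 0.09). Their part in the results was not tested. KO array 3 stood apart within its group. Its SD from the group mean over all genes was 0.266 (log2) against 0.165 to 0.216 in the other 5, its upper quartile of intensity was the lowest (97.6 against 106 to 125), and its 5' minus 3' signal of the Gapdh control was the lowest (-0.315 against -0.249 to -0.067). For many genes the value without KO array 3, or without WT array 2, is given beside the result. In bulk RNA, fewer cells of a kind and less RNA per cell cannot be told apart.

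No gene passed an adjusted p of 0.05 in the comparison of all genes (0 of 17097, 0% called, by limma). The smallest adjusted p was 0.0529, shared by Klf3 and L1cam. At an unadjusted p of 0.05, 778 genes (4.55%) were called, 433 higher (2.53%) and 345 lower (2.02%) in KO cells, where 5% are expected with no difference at all. On the deposited scale the split was 105 higher and 558 lower. The 3 KO values lay all above or all below the 3 WT values for 2058 genes (12.0% of all genes, 6.38% above and 5.66% below). All genes here include 6501 that lay at or under the nonspecific level in all 6 vehicle arrays. The median difference over all genes was 0.01, with quartiles at -0.11 and 0.12, and the 95% interval of a gene reached a median of 0.38 to each side. Other settings called between 0 and 37 genes. L1cam was called higher and Klf3 lower without WT array 2, with adjusted p of 2.4e-06 and 0.0319, and down-weighting outlying arrays called 28 genes higher and 9 lower.

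Of the 17097 genes, 36 (0.211%) were at least 2-fold apart with no overlap between the 3 KO and the 3 WT arrays, 19 higher (0.111%) and 17 lower (0.0994%) in KO cells. Without KO array 3 the same counts were 26 and 25, and without WT array 2 they were 35 and 25, with 1 array fewer to separate. They were 32 and 35 without KO array 1 and 29 and 21 without KO array 2. On the deposited scale, with no normalization between arrays, 10 were higher and 29 lower. The genes described next were taken from these 36 or from the smallest p-values after their values were seen, and none of them, Klf3 included, passed the adjusted threshold over all genes. Of the 20 genes with the smallest p, 17 were higher and 3 lower in KO cells.

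**Figure D2:**
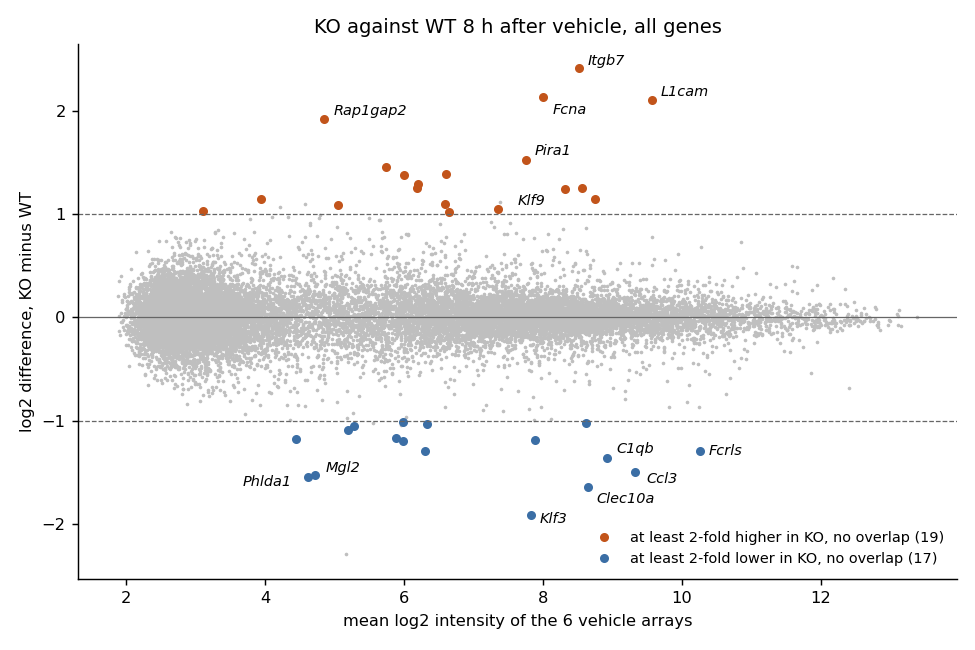
Log2 difference KO minus WT 8 h after vehicle (y axis) against the mean log2 intensity of the 6 vehicle arrays (x axis) for 17097 genes; coloured points are the 19 genes at least 2-fold higher and the 17 at least 2-fold lower with no overlap between arrays, and dashed lines mark 2-fold. L1cam, Itgb7 and Fcna are bright genes that stand above 2 on the log2 scale, and Klf3 is the lowest coloured point.

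L1cam, a cell adhesion molecule of the immunoglobulin superfamily best known from neurons, read 8.02, 9.59 and 7.94 in WT arrays and 10.47, 10.58 and 10.83 in KO arrays. Its difference was 2.11 ± 0.31 (4.32-fold; adjusted p = 0.0529, 2.4e-06 to 0.804 over the alternatives). The KO arrays lay close together, and WT array 2 lay far above the other WT arrays though below every KO array. The other L1cam probe set, 1421958_PM_at, gave 1.47 ± 0.24, with WT arrays at 4.05 to 4.78 and KO arrays at 5.57 to 6.20. Itgb7, the integrin beta chain that pairs with alpha 4 or alpha E in lymphocyte homing to the gut, read 7.36, 7.74 and 6.84 in WT arrays and 10.06, 9.85 and 9.28 in KO arrays. At 2.42 ± 0.44 (5.33-fold; adjusted p = 0.233) it had the largest difference of the 19. Of 25 leukocyte integrin and adhesion genes 2 were higher without overlap, against 6.38% of all genes, the median of the list was 0.01, and the next by p were Tln1 (0.53 ± 0.18) and Itgal (0.31 ± 0.17).

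Fcna, which encodes ficolin A, a secreted lectin that activates complement, read 6.86, 7.31 and 6.65 in WT arrays and 9.56, 9.55 and 8.10 in KO arrays (2.13 ± 0.41, 4.39-fold, adjusted p = 0.233). KO array 3 lay well below the other KO arrays, and without it the difference was 2.62. Rap1gap2, which encodes a GTPase-activating protein for the small GTPase Rap1, read 3.76, 4.29 and 3.63 in WT arrays and 5.23, 5.62 and 6.60 in KO arrays (1.92 ± 0.34, adjusted p = 0.191). There 1 of the 3 WT arrays exceeded the nonspecific level, so the WT level is close to background. Pira1, an activating paired immunoglobulin-like receptor, was 1.53 ± 0.35 higher, with WT arrays at 6.64 to 7.33 and KO arrays at 8.00 to 8.78. Pira genes are near-identical copies, and which of them the probe set reads is uncertain. Adgre5, which encodes the adhesion receptor CD97, was 1.15 ± 0.31 higher, at 8.11 to 8.31 in WT and 8.86 to 9.58 in KO arrays.

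Col18a1, the collagen XVIII chain from which endostatin is cut, was higher by 1.39 ± 0.28 and, at its other probe set 1426955_PM_at, by 1.34 ± 0.21, where WT arrays read 5.62 to 5.80 and KO arrays 7.00 to 7.13. Cd109, a glycosylphosphatidylinositol-anchored co-receptor that dampens TGF-beta signalling, read 5.40, 5.64 and 5.62 in WT and 6.75, 6.87 and 6.80 in KO arrays (1.26 ± 0.26, adjusted p = 0.251). The arrays of each group lay close together. Tfrc, the transferrin receptor that takes up iron, was 1.25 ± 0.37 higher. Nqo1, a quinone reductase and textbook NRF2 target, was 0.94 ± 0.19 higher (adjusted p = 0.233), but the median of 16 NRF2 targets was -0.04 and Gstm1 read -0.44 ± 0.20. Nfix, a nuclear factor I transcription factor, read 6.05 to 6.39 in WT and 6.97 to 7.04 in KO arrays (0.78 ± 0.15, adjusted p = 0.233). Other Nfix probe sets gave 0.53 ± 0.14 (1436364_PM_x_at) and -0.15 ± 0.18 (1451443_PM_at), the latter with overlap and near the nonspecific level. Tekt2, a tektin of cilia and flagella, lay at or under the nonspecific level in all WT arrays and was at least 1.53-fold higher in KO cells. For 4 of the 19, KO array 3 carried much of the difference. Cd24a, a surface glycoprotein gene, was at 1.30 with it and 0.52 without it, the receptor gene Havcr2 at 1.02 and 0.50, the lysosomal channel gene Mcoln3 at 1.38 and 0.97, and the cyclophilin gene Ppic at 1.10 and 0.76.

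On the lower side, Clec10a, a galactose-binding lectin used as a marker of alternative activation, read 9.59, 9.20 and 9.61 in WT arrays and 8.60, 8.39 and 6.48 in KO arrays (-1.65 ± 0.58, adjusted p = 0.875). All KO arrays lay below all WT arrays, but KO array 3 made much of the difference, which was -0.97 without it. Its close relative Mgl2 read 6.37, 4.83 and 5.26 in WT and 4.04, 3.94 and 3.88 in KO arrays (-1.53 ± 0.38, adjusted p = 0.412), and was -1.49 without KO array 3. The 3 chains of complement C1q, the recognition molecule of the classical pathway, were lower without overlap. C1qb read 9.84, 9.38 and 9.60 in WT and 8.98, 8.98 and 6.76 in KO arrays (-1.36 ± 0.49), C1qa was at -1.02 ± 0.58 and C1qc at -0.87 ± 0.27. Without KO array 3 these were -0.62, -0.53 and -0.60. Fcrls, an Fc receptor-like scavenger molecule, read 11.02, 10.65 and 11.06 in WT and 10.35, 9.91 and 8.58 in KO arrays (-1.30 ± 0.39, and -0.78 without KO array 3).

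Phlda1, an early response gene, read 5.41, 4.96 and 5.79 in WT and 3.45, 3.18 and 4.88 in KO arrays (-1.55 ± 0.48). KO arrays 1 and 2 lay under the nonspecific level, and KO array 3 was the KO array nearest to WT. The nicotinic acid receptor gene Hcar2 was at -1.05 ± 0.33, and at -1.42 without KO array 3. The chemokine gene Ccl3 read 9.68, 10.05 and 10.51 in WT and 9.50, 9.65 and 6.60 in KO arrays, so its -1.50 ± 0.56 shrank to -0.51 without KO array 3. Atf5, a transcription factor of the integrated stress response, was lower by 0.99 ± 0.24 on the log2 scale with WT arrays at 8.18 to 8.56 and KO arrays at 7.23 to 7.52, but the median of 25 stress response genes was 0.07. Lpl, lipoprotein lipase, read 12.05 to 12.22 in WT and 11.39 to 11.93 in KO arrays (-0.54 ± 0.13). The other Lpl probe set, 1431056_PM_a_at, gave -0.96 ± 0.16 (adjusted p = 0.0708 by limma over all probe sets). There WT arrays read 10.96 to 11.10 and KO arrays 9.94 to 10.27. Apoe read 12.73 to 12.77 in WT and 11.69 to 12.35 in KO arrays (-0.68 ± 0.28). The lowest fitted value was not among the 36: the desaturase gene Scd1 read 5.85, 4.36 and 1.82 in KO arrays against 5.62 to 6.75 in WT arrays, a spread that gave -2.30 ± 0.95. KO array 3 lay under the nonspecific level there, and without it the value was -1.20.

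**Figure D3:**
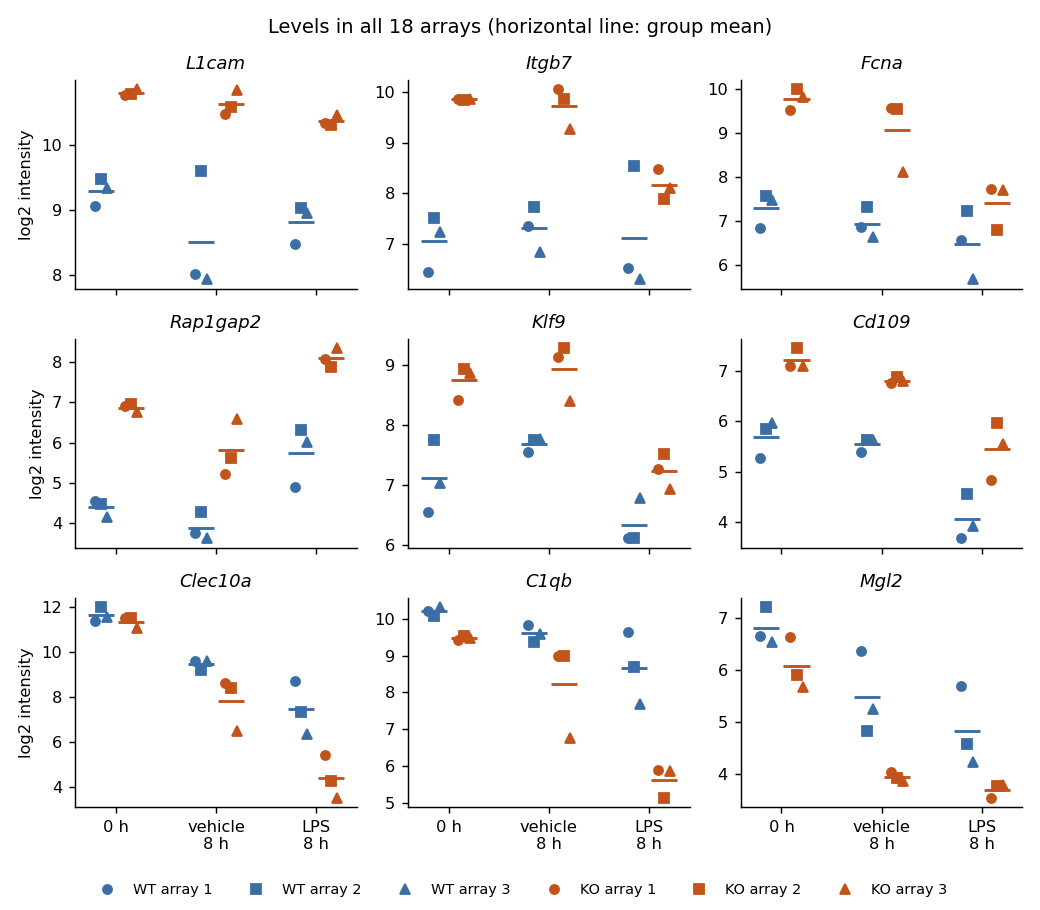
Log2 intensity (y axes) of 9 genes in all 18 arrays by condition (x axes). Points are arrays, horizontal lines are group means, and markers show the replicate number. The labels do not say whether the same number in different conditions stands for the same animal or culture. For L1cam, Itgb7, Fcna, Rap1gap2, Klf9 and Cd109 the KO points lie above the WT points at 0 h and after vehicle, and for Clec10a and C1qb KO array 3 lies far below the other KO vehicle arrays.

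Of 21 measured KLF and SP family genes, 3 were higher and 4 lower without overlap, Klf3 among the latter, against 6.38% and 5.66% of all genes, and none but Klf3 had an adjusted p near the threshold. The median was -0.02 against 0.01 for all genes. Klf9, a family member induced by glucocorticoids, read 7.55, 7.74 and 7.77 in WT and 9.13, 9.28 and 8.40 in KO arrays (1.25 ± 0.29, 2.38-fold, adjusted p = 0.295). A further Klf9 probe set, 1428288_PM_at, gave 1.26 ± 0.41. The dimmer probe sets 1422264_PM_s_at, 1436952_PM_at and 1452723_PM_at gave 0.90 ± 0.45, 0.53 ± 0.36 and -0.06 ± 0.17. The groups overlapped at 1436952_PM_at and 1452723_PM_at. Sp7 (-0.73 ± 0.19) and Klf1 (0.62 ± 0.23) were separated too, but each lay at or under the nonspecific level in all arrays of 1 genotype. Klf10 was at 0.47 ± 0.25. The KLF3 corepressor genes Ctbp1 (0.07 ± 0.11) and Ctbp2 (-0.04 ± 0.13) and the partner Fhl3 (-0.05 ± 0.14) overlapped, and Ctbp1 was negative on the deposited scale (-0.13), after equalising array medians (-0.08) and after equalising hybridisation controls (-0.10). Of the reported KLF3 targets, Lgals3, which encodes galectin-3, read 13.05 to 13.17 in WT and 13.15 to 13.17 in KO arrays (0.07 ± 0.10, 95% interval -0.14 to 0.28; -0.04 on the deposited scale). It was among the brightest probe sets of the array, and whether its signal was near saturation was not tested. C1qtnf12, encoding the adipokine CTRP12, read 8.97 to 9.23 and 9.24 to 9.34 (0.18 ± 0.12, interval -0.08 to 0.44; -0.02 on the deposited scale). Of 8 galectin genes 1 was separated, Lgals3bp at -0.44 ± 0.16.

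The promoters of the genes on the higher side are shown because KLF3 is known to bind CACCC boxes. The 250 bases before the start site, from the RefSeq table of GRCm38.p6, are printed 5′ to 3′ along the gene, with CACCC and its reverse complement GGGTG in capitals. They belong to L1cam (chrX:73880791-73881040, minus strand, the first of 2 listed starts), Itgb7 (chr15:102231936-102232185, minus strand), Fcna (chr2:25627975-25628224, minus strand) and Klf9 (chr19:23140976-23141225, plus strand), with that of Klf3 itself (chr5:64803271-64803520, plus strand) for comparison.
L1cam: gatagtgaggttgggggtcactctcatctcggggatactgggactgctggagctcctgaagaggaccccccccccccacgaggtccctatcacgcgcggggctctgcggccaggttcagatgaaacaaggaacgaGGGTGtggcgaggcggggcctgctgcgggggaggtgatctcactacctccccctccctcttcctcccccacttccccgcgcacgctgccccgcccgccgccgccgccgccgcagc
Itgb7: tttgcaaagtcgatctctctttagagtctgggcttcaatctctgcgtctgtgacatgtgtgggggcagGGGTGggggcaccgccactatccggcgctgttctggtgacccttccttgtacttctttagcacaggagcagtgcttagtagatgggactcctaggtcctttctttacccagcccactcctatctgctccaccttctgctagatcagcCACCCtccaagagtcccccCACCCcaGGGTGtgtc
Fcna: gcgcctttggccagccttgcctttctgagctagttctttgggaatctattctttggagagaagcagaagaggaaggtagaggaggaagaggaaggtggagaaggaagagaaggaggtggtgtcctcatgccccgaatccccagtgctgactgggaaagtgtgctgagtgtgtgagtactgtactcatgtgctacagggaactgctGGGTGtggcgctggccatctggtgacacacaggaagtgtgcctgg
Klf9: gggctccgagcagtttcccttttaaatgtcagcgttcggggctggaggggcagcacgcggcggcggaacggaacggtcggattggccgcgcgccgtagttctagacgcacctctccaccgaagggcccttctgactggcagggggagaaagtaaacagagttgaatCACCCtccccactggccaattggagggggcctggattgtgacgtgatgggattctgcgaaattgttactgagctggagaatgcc
Klf3: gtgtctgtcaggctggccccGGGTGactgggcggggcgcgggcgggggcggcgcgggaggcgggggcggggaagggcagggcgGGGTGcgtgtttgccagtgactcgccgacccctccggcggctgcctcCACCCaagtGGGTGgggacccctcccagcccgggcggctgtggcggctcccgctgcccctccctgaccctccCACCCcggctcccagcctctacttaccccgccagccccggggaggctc
Itgb7 held 4 matches, L1cam, Fcna and Klf9 1 each and Klf3 5. With the first listed start of each gene, 13 of the 14 genes on the higher side that have an entry in the table held at least 1 match, and so did 6 of the 11 on the lower side. Of the 13605 promoters of tested genes 56.9% held a match. The motif is short and the genes were picked for their difference, so the match is a description of these letters and not a site.

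Gene lists of macrophage function showed no member past the adjusted threshold in any of the 34 pathway lists. Against the background of 12.0% of all genes without overlap, the pro-inflammatory cytokines counted 2 of 17, the chemokines 1 of 23, the interferon-stimulated genes 1 of 33, and the LPS receptor and TLR signalling genes 4 of 24. Their medians were -0.07, -0.0011, -0.04 and -0.03, and without KO array 3 they were -0.13, 0.0046, 0.06 and 0.02. Of the members of these lists 8, 18, 33 and 22 were above the nonspecific level in at least 1 vehicle array. For members at or under it in all 6 arrays no genotype difference can be read. Tnf, the gene of tumour necrosis factor, read 6.23 to 6.39 in WT and 5.36 to 6.36 in KO arrays (-0.53 ± 0.32, and -0.83 without KO array 3). Of the NF-kB subunits, inhibitors and feedback genes 6 of 28 were higher and 2 lower without overlap, with Traf1, a signalling adaptor of TNF receptors, at 0.83 ± 0.21 with 1 of 3 WT arrays above the nonspecific level, and Socs3, a feedback inhibitor of cytokine receptors, at 0.60 ± 0.22. The receptor gene Il21r read 6.22, 6.22 and 6.30 in WT and 6.82, 6.76 and 6.81 in KO arrays (0.55 ± 0.14). Of 20 alternative activation markers 1 was higher and 3 lower without overlap, the latter being Mgl2, Clec10a and the transcription factor gene Egr2 (-1.10 ± 0.44, and -0.67 without KO array 3). The mannose receptor gene Mrc1 was at -0.50 ± 0.17 with overlap and at -0.27 without KO array 3, and the median of the list was -0.07. Of 13 complement genes 4 were lower without overlap, the median being -0.14. MHC class I and antigen processing genes had 5 of 14 lower without overlap by small amounts, with H2-M3 at -0.37 ± 0.14, Psmb8 at -0.29 ± 0.14 and Erap1 at -0.30 ± 0.15.

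The list with the highest median was proliferation, and it rested on KO array 3. All 34 proliferation genes had a positive difference, with a median of 0.39 against 0.01 for all genes, but the groups overlapped for 32 of them. Relative to the WT mean, the median gene of the list lay at -0.02 in KO array 1, 0.06 in KO array 2 and 1.09 in KO array 3. KO array 3 was the highest of the 6 arrays for 33 of the 34 genes, as for the ribonucleotide reductase gene Rrm2 at 9.17 against 6.38 to 7.60. Without it the median was 0.03 and 22 of 34 differences were positive. KO array 3 also moved the lists of metabolism. The median of 19 cholesterol synthesis genes went from 0.03 to -0.20 without it, that of 16 NRF2 targets from -0.04 to -0.21, that of 15 LXR targets from 0.08 to 0.33, and that of 26 glycolysis genes from 0.09 to -0.03. The medians of 34 mitochondrial respiratory chain genes (0.03 and -0.0028) and 20 ribosomal protein genes (-0.05 and -0.0077) moved little. Small medians also depend on the scaling. On the deposited scale the median of all genes was -0.16, with arrays set to equal medians -0.11 and with equal hybridisation controls -0.13, and 19 of the 46 list medians changed sign under at least 1 of these, the largest of them 0.09. Read against those shifts, proliferation (0.19 on the deposited scale) and complement (-0.27) kept their side of the median of all genes. So did other lists, such as immediate early and ERK output (-0.32) and MHC class II and co-stimulation (-0.27). For proliferation this still rested on KO array 3.

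**Figure D4:**
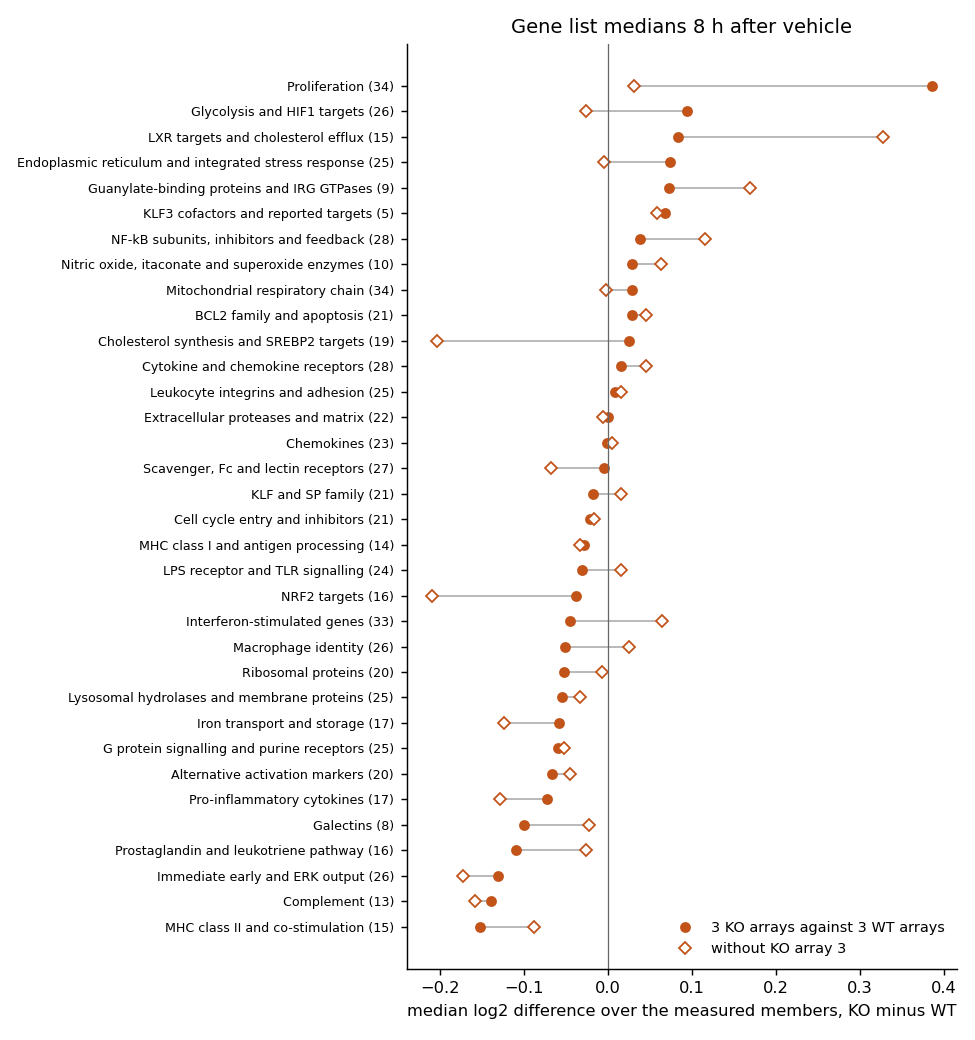
Median log2 difference KO minus WT (x axis) over the measured members of 34 gene lists (y axis, number of members in brackets), with all 6 vehicle arrays (filled circles) and without KO array 3 (open diamonds). The proliferation median drops from 0.39 to 0.03 when KO array 3 is left out, and those of cholesterol synthesis genes and NRF2 targets move to -0.20 and -0.21.

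The neighbours of Klf3 on chromosome 5 were read next. Of the 10 measured genes on each side of Klf3, 16 were above the nonspecific level in at least 1 array, 1 was higher and 3 were lower without overlap (12.0% of all genes in either direction), and none passed the adjusted threshold. Tlr6, a TLR2 partner that lies 2 genes from Klf3, read 7.44, 7.15 and 7.35 in WT and 6.52, 6.93 and 6.56 in KO arrays (-0.64 ± 0.19, adjusted p = 0.623). Pcdh7, a protocadherin gene 10 genes away on the other side, read 6.26 to 6.91 and 5.13 to 5.73 (-1.20 ± 0.35), and G6pd2 was at -0.42 ± 0.20 and at -0.25 without KO array 3. The genes on either side of Klf3, Tlr1 (-0.15 ± 0.14) and Gm3716 (0.02 ± 0.22), overlapped, as did Tbc1d1 (0.10 ± 0.21) and Pgm2 (0.15 ± 0.15; -0.05 on the deposited scale). Without KO array 3 Tlr1 was at 0.0094 and Tbc1d1 at -0.11. The 1 higher neighbour, 5830416I19Rik (0.83 ± 0.21), lay under the nonspecific level in all 6 arrays.

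The 0 h arrays are other arrays than the vehicle arrays and read the genotype difference just after the change of medium. Their calls still draw on the vehicle arrays, since the fit takes 1 spread per gene from all 18 arrays. A small spread in the vehicle arrays favours both a call at 0 h and separation after vehicle, so these are not independent. The labels also do not say whether the same animals or cultures gave the 0 h and vehicle arrays. In deviations from group means, same-numbered 0 h and vehicle arrays correlated at 0.05, 0.01 and 0.09 in WT. In KO they correlated at -0.09, 0.30 and 0.16. Differently numbered ones ran from -0.14 to 0.09 in WT and from -0.32 to 0.20 in KO. At 0 h, 24 genes (0.140%) passed the adjusted threshold, 19 higher and 5 lower in KO cells. On the deposited scale the split was 10 and 9, with the replicate number as a block over all 18 arrays 20 and 12, and without KO vehicle array 3 23 and 11. All 19 were also higher after vehicle, 15 of them (78.9%) without overlap, against 6.38% of all genes in that direction. The median difference of the 19 was 1.63 at 0 h and 0.74 after vehicle. Since they were picked for their size at 0 h, the smaller values after vehicle are no sign of a decline. Without KO array 3, 17 of the 19 were separated against 12.8% of all genes, and without WT array 2 17 of 19 against 11.6%.

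Among the 19, Itgb7 was at 2.79 at 0 h and 2.42 after vehicle, Fcna at 2.48 and 2.13, Rap1gap2 at 2.47 and 1.92, Pira1 at 2.20 and 1.53, and Klf9 at 1.63 and 1.25. Cd109 (1.53 and 1.26) was as close. Mmp8, neutrophil collagenase and 1 of the 2 neutrophil markers of 10 with a positive difference, was at 1.31 and 0.63 ± 0.18, and the adhesion receptor gene Ceacam1 at 1.23 and 0.76 ± 0.21. Trim2 (1.71 and 0.70) lay at or under the nonspecific level in all vehicle arrays. The groups overlapped after vehicle for Ryr1 (0.30 ± 0.31, and 0.78 without KO array 3), Pgap4 (0.24 ± 0.18), Krt80 (0.16 ± 0.16) and the inhibitory receptor gene Pirb (0.13 ± 0.12; -0.06 on the deposited scale).

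Of the 5 genes lower at 0 h, 4 overlapped after vehicle and 1 was lower without overlap, against 5.66% of all genes. Without KO array 3, 3 of the 5 were separated against 12.9%, and their median went from -0.21 to -0.40. The inhibitory Fc receptor gene Fcgr2b was at -0.92 at 0 h and -0.32 ± 0.13 after vehicle, where the groups did not overlap. The integrin gene Itgb3 (-1.86 and -0.25 ± 0.27), the chemokine gene Ccl5 (-1.56 and -0.21 ± 0.29), Slc25a33 (-0.94 and -0.10 ± 0.15) and Cdhr3 (-0.95 and 0.08 ± 0.18) overlapped, and Itgb3 lay at or under the nonspecific level in all vehicle arrays. The test of the difference between the 2 genotype effects called 0 of 17097 genes (0%, by limma), with 628 (3.67%) at an unadjusted p of 0.05.

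**Figure D5:**
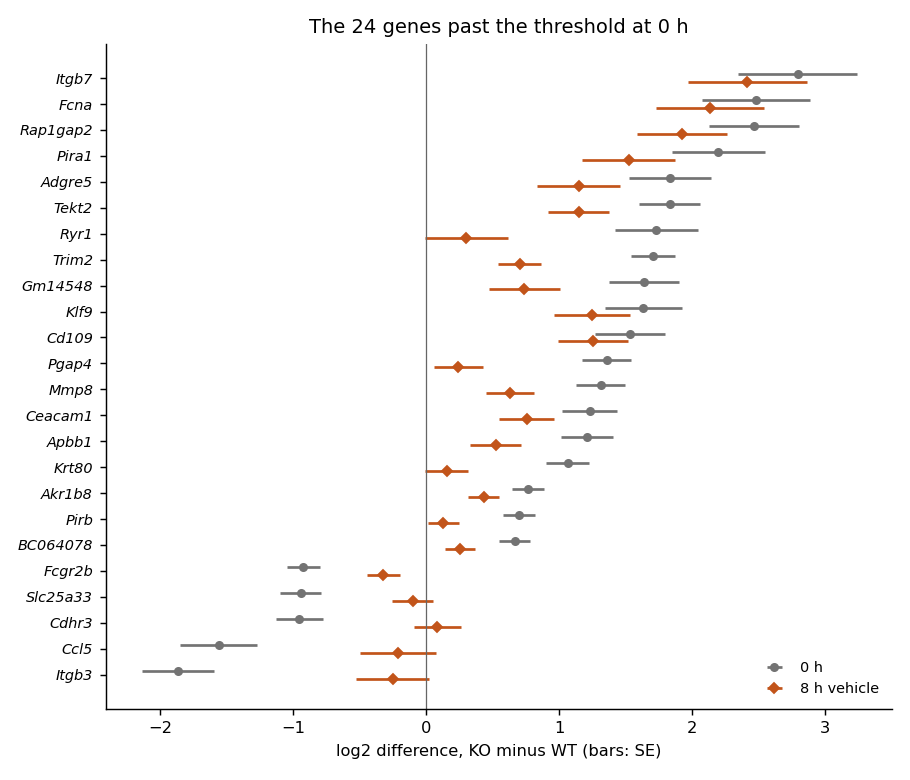
Log2 difference KO minus WT (x axis, bars are SE, n = 3 arrays per group) at 0 h (grey circles) and 8 h after vehicle (diamonds) for the 24 genes past the adjusted threshold at 0 h (y axis). All 19 genes higher at 0 h lie to the right of 0 after vehicle as well, and every vehicle value is nearer 0 than its 0 h value, as picking the genes at 0 h favours.

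After LPS the genotype difference was wider, with 1020 genes (5.97%) past the threshold, 482 higher and 538 lower, a split of 1238 and 129 on the deposited scale. Of the 482 higher there, 66 (13.7%) were higher without overlap after vehicle and 25 lower without overlap, where all genes gave 6.38% and 5.66%, and of the 537 lower there besides Klf3 66 (12.3%) were lower and 35 higher. The test of the difference called 189 genes (1.11%; 117 without WT vehicle array 2 and 122 without WT vehicle array 3), 101 with a more positive and 88 with a more negative genotype difference after vehicle than after LPS. On the deposited scale these were 16 and 278. The cytokine genes Csf2, Lif, Il12a, Il23a and Inhba, which led the 88, lay at or under the nonspecific level in all 6 vehicle arrays, so no genotype difference can be read there after vehicle. The acute phase gene Saa1, first of the 101, lay under it as well. Haptoglobin (Hp) read 5.16 to 5.56 in WT and 5.13 to 5.39 in KO vehicle arrays (-0.11 ± 0.23) and was lower by 2.90 on the log2 scale in KO cells after LPS. Gins1 (0.40 ± 0.28), Cacna1d (-0.37 ± 0.32) and Ly6i (0.56 ± 0.28) completed the 5 largest on that side. Without KO array 3 they were at 0.04, -0.21 and 0.92 after vehicle, and Ly6i lay at or under the nonspecific level in all WT arrays.

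Some genes named for vehicle had differences of opposite sign after vehicle and after LPS and passed the test of the difference. They are listed because they passed that test. None of them passed the adjusted threshold after vehicle, and the groups overlapped there for Tnf. Nfix was at 0.78 ± 0.15 after vehicle and -0.72 after LPS (difference 1.50 ± 0.22, adjusted p = 0.00232), and Klf10 at 0.47 and -1.29 (1.76 ± 0.35, adjusted p = 0.0183). Hcar2 was at -1.05 after vehicle and 1.95 after LPS (-3.00 ± 0.47, adjusted p = 0.00367), and Egr2 at -1.10 and 2.03 (-3.13 ± 0.63, adjusted p = 0.0194). Tnf was at -0.53 and 1.76 (-2.29 ± 0.45, adjusted p = 0.0168). Il21r was at 0.55 and -0.42 (0.97 ± 0.20, adjusted p = 0.0223). L1cam, Rap1gap2 and Cd109 were higher in KO cells in each condition, by 1.54, 2.35 and 1.41 after LPS, and their tests of the difference gave adjusted p of 0.664, 0.789 and 0.928. Egr2 lost its call without WT vehicle array 2 (-2.98, adjusted p = 0.0605) or 3 (-3.06, adjusted p = 0.0572), and Klf10 without WT vehicle array 1 (1.69, adjusted p = 0.0582) or 2 (1.73, adjusted p = 0.0557). Tnf lost it without WT vehicle array 3 (-2.25, adjusted p = 0.0504), KO vehicle array 1 (-2.09, adjusted p = 0.0518) or KO vehicle array 2 (-2.20, adjusted p = 0.0512). Il21r lost it without any 1 of WT vehicle arrays 1, 2 and 3 or KO vehicle arrays 1 and 2 (0.96 to 1.00), and Nfix, Klf10 and Il21r also lost it on the deposited scale (1.01, 1.23 and 0.48) and with equal hybridisation controls (0.99, 1.21 and 0.47). With equal medians Il21r lost it too (0.75, adjusted p = 0.236). Lif kept no call with the median of its probe sets (-0.49, adjusted p = 0.396).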

How the data were processed

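The authors deposited 1 linear intensity for each probe set and array of an Affymetrix HT MG-430PM plate; the submitters' processing notes name Partek. Its version, background correction and scaling: not given in the sources used here. Array quantiles differed, so log2 was taken and arrays were quantile-normalized, a departure from the planned test, which had assumed log2 values already normalized. Of 45141 probe sets 104 controls were left out, and 28898 with 1 gene symbol gave 17097 genes. With limma 3.58.1 (R 4.3.3), 6 group means were fitted over the 18 arrays. Two-sided p-values were adjusted by Benjamini-Hochberg across all genes (threshold 0.05), errors are SE, and the number of arrays limits the precision. A total of 46 gene lists matched 830 of 935 entries. By rule the text names Klf3, list members with the smallest p, neighbours and the largest interaction genes. Members and lists were chosen with earlier results of these data known. The fit was tested on simulated data. Alternatives covered scaling, filters, probe set choice, blocks, weights and each array left out. Each condition filled its own pair of plate rows. In their deviations from the group means, same-numbered WT and KO arrays correlated at 0.105, -0.098 and -0.156 after vehicle and at 0.143, 0.238 and 0.142 at 0 h. Differently numbered WT and KO arrays reached at most 0.215 after vehicle and 0.009 at 0 h. The 0.215 was WT array 2 with KO array 3, which shared plate column 9. The other WT and KO vehicle arrays that shared a column correlated at -0.025 and 0.119, and those at 0 h at -0.149, -0.132 and -0.004. With the plate column as a block, limma called L1cam and Klf3, each with an adjusted p of 0.00928. With 3 arrays per group such values cannot tell whether the numbers mark pairs, and the main fit had no block.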

Additional observations from a re-analysis of the deposited data

Results flagged for a closer look

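The genotype difference after vehicle and that after LPS differed by the interaction test for 16 of the genes named here, and these are given as values (log2, vehicle minus LPS, ± SE, n = 3 arrays per group). The difference was more negative after vehicle for Csf2 (-6.26 ± 0.27, adjusted p = 1.72e-09), Il23a (-3.82 ± 0.46, adjusted p = 0.000465), Lif (-3.76 ± 0.28, adjusted p = 4.27e-06), Inhba (-3.72 ± 0.55, adjusted p = 0.00234) and Il12a (-3.68 ± 0.39, adjusted p = 0.000153). These 5 lay at or under the nonspecific level in every vehicle array. It was more negative as well for Egr2 (-3.13 ± 0.63, adjusted p = 0.0194), Hcar2 (-3.00 ± 0.47, adjusted p = 0.00367) and Tnf (-2.29 ± 0.45, adjusted p = 0.0168), of which Hcar2 and Tnf were above that level in all 6 vehicle arrays and Egr2 in 5. It was more positive for Saa1 (4.56 ± 0.61, adjusted p = 0.00112), Hp (2.79 ± 0.33, adjusted p = 0.000422), Gins1 (2.78 ± 0.40, adjusted p = 0.002), Cacna1d (2.73 ± 0.46, adjusted p = 0.00591), Ly6i (2.70 ± 0.40, adjusted p = 0.00232), Klf10 (1.76 ± 0.35, adjusted p = 0.0183), Nfix (1.50 ± 0.22, adjusted p = 0.00232) and Il21r (0.97 ± 0.20, adjusted p = 0.0223). Groups of 3 arrays are too small for an outlier test.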

How the results depend on the processing

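The number of arrays limits the precision. Counts of genes higher and lower after vehicle, 0 and 0, were 1 and 1 with dim genes left out, the plate column as a block, a random block, a trend and robust fit, or, added after seeing the data, values raised to the nonspecific level. They were 4 and 2 with equal hybridisation controls, 2 and 1 with the median of probe sets, and 28 and 9 with array weights. Over every probe set, a setting also added later, 3 probe sets were higher and 3 lower by limma. All 3 lower ones read Klf3. The higher ones read L1cam, Uck2 (1.49 ± 0.21, adjusted p = 0.0324) and no assigned gene. The Uck2 probe set lay under the nonspecific level in all WT arrays (2.90, 3.45 and 2.99). Leaving out single arrays gave 0 to 1 in each direction. With the replicate number as a block the counts stayed at 0 and 0, also in an added fit of the 6 vehicle arrays. At 0 h the counts, 19 and 5, were 34 and 19 with a pseudocount of 16, 30 and 15 with raised values, 55 and 55 with array weights, 23 and 11 without KO vehicle array 3 and 20 and 12 with the replicate block. The difference between vehicle and 0 h called 0 genes in every setting run. That between vehicle and LPS, 189 genes, was 294 on the deposited scale (16 more positive, 278 more negative). It was 122 with equal hybridisation controls, 325 with a pseudocount of 16 and 289 with dim genes left out. It was 348 with array weights and 117 to 224 without single arrays. Over every probe set, 274 probe sets were called. Genes at least 2-fold apart without overlap, 19 higher and 17 lower, were 10 and 29 on the deposited scale, 7 lower with the pseudocount, and 19 to 35 and 17 to 35 without single arrays. Of the 76 genes named for vehicle, 63 kept their sign in all 22 settings.
Signs turned for differences near 0. On the deposited scale this held for Lgals3 (-0.042), C1qtnf12 (-0.020), Ctbp1 (-0.13), Pgm2 (-0.046) and Pirb (-0.059), with equal medians for Ctbp1 (-0.076) and Pirb (-0.0094), and with equal hybridisation controls for Lgals3 (-0.013), Ctbp1 (-0.097), Pgm2 (-0.017) and Pirb (-0.030). With values raised to the nonspecific level it held for Itgb3 (0.0030), and with array weights for Cdhr3 (-0.014). All 6 vehicle values of Itgb3 were replaced by the level of their array, so 0.0030 is a difference of levels. The same held for 5830416I19Rik and Trim2 (0.0030 each), so their sign in that setting says nothing about the genes. Without single arrays, 0 lay within the range of Ctbp2 -0.091 to 0.017, Fhl3 -0.18 to 0.043, Tlr1 -0.26 to 0.0094, Tbc1d1 -0.11 to 0.32, Ccl5 -0.61 to 0.12, Cdhr3 -0.038 to 0.26 and Ryr1 -0.0053 to 0.78. The scalings turn signs by shifting all genes, and for array weights and single arrays the cause was not tested.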
